A study of Homo sapiens with 9 samples.

Results

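CD44 and 8 genes commonly read as signs of a mesenchymal cell state (VIM, FN1, ZEB2, SNAI1, SNAI2, TWIST1, AXL and TGFBI) were examined in ZR-75-1, an established breast cancer cell line that expresses the estrogen receptor. The members were chosen by gene symbol through the platform's probe annotation, and 8 of the 9 genes have a probeset there. These 8 genes have 10 probesets, 3 of them for VIM, out of 14884 genes and 16098 named probesets in all. That annotation, as given here, pairs no probeset with TGFBI, an extracellular matrix protein induced by TGF-beta, so that gene was not analysed here. RNA was measured on 9 Affymetrix Human Gene 2.0 ST arrays, 48 h after transfection, in 3 groups of 3. The first group received a lipid reagent with 50 nM of a mimic of the mature microRNA miR-150-5p, the second the same reagent with 50 nM of a non-specific negative control RNA, and the third, called mock, the reagent without RNA. All 3 groups were therefore exposed to the lipid. The stated design is of triplicate transfections of 1 cell line, and nothing says whether these were independent experiments, and p-values therefore reflect only how much these samples vary, which may be technical variation.

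In epithelial-mesenchymal transition, cells lose cell-cell junctions and keratin-based architecture and gain a migratory, fibroblast-like form. The transcription factors of the SNAI, TWIST and ZEB families drive this change by binding short E-box motifs in DNA and repressing epithelial genes such as E-cadherin, while vimentin filaments and a fibronectin-rich matrix mark its product. CD44, the main cell surface receptor for the matrix polysaccharide hyaluronan, is made in many splice forms and is widely used as a marker of basal-like and stem-like breast cancer cells; luminal lines such as ZR-75-1 are known for an epithelial state.

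The values are the authors' RMA log2 intensities, so a difference of 1 is a 2-fold difference in signal. The median over all probesets was 4.22 to 4.27 on every array. The median of all 14884 genes, each at its mean over the 9 arrays, was 5.44, and levels below are given relative to it. Probesets differ in how strongly they hybridise, so a level places a gene among all genes but does not rank members against each other, and no detection call was at hand to separate a dim gene from background. Because these are bulk samples, less RNA per cell and fewer cells that express a gene cannot be told apart.

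The defining markers of luminal breast epithelium were high in these cells: all 11 measured of 14 listed (among them KRT18, KRT19, EPCAM, GATA3 and ESR1) lay above the median of all genes. Of 15 measured genes of epithelial adhesion or of repressors of the transition, 14 lay above it. CDH1, which encodes E-cadherin, was not analysed here. The members sat lower. Relative to that median FN1 (0.40, log2) and CD44 (0.09) were the 2 of 8 above it, and CD44 stood at percentile 51.3 of all genes. These levels pool the 3 groups. CD44 averaged 5.69 in negative control and 5.62 in mock arrays, above the median of 5.44, but 5.28 in mimic arrays, below it. TWIST1 (-0.12), AXL (-0.23), the brightest VIM probeset (-0.35) and SNAI1 (-0.54) lay below it, at percentiles between 41.6 and 48.0. ZEB2 (-1.87, percentile 20.9) and SNAI2 (-1.99, percentile 18.7) lay in the lowest part of the scale. Among 22 other mesenchymal markers 7 were measured and 0 lay above the median. Their levels ran from S100A4, a calcium-binding protein of motile cells, at -1.92 to THY1, a surface glycoprotein of fibroblasts, at -0.54. Of 5 measured basal markers 2 lay above it, OXTR (1.06) and EGFR (0.41), of 5 fibroblast markers 0, and of 5 leukocyte markers 1 (CD8A, 0.38).

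**Figure D1:**
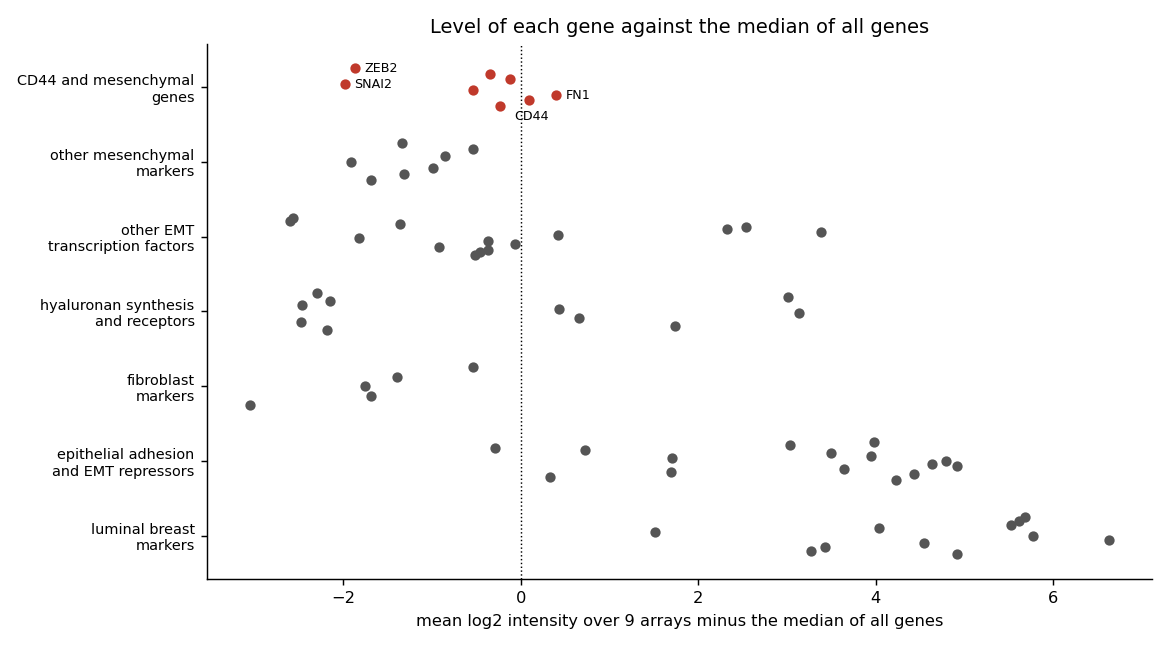
Mean log2 intensity over 9 arrays minus the median of all genes (x axis, log2 units), 1 point per measured gene, for CD44 and the mesenchymal genes (red, 8 genes) and 6 lists of related genes (grey). Of the red points 2 lie right of the dotted line at 0, against 0 of 7 other mesenchymal markers, 14 of 15 epithelial genes and 11 of 11 luminal markers.

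The letters just before the start sites of 3 members are shown. CD44 and FN1 are the members whose arrays separated below. Among the 6 members whose windows were examined, AXL is the one with CACCTG or CAGGTG, the E-box motif searched for. Other E-box forms were not searched for. No window of SNAI1, SNAI2 or TWIST1 was examined. Each run is the 250 bases before a RefSeq transcript start (GRCh38.p14), 5' to 3' on the gene's strand. Capitals mark CACCTG or CAGGTG, which are the 2 strands of 1 E-box motif bound by SNAI and ZEB factors, and TGACGTCA, the palindromic cAMP response element; the motifs do not overlap.
CD44, chr11:35138921-35139170, plus strand: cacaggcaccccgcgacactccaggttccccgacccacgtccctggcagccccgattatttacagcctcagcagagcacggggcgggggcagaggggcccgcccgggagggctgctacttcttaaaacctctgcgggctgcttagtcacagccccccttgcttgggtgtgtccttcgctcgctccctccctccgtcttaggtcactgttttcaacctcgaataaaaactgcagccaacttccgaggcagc
FN1, chr2:215436069-215436318, minus strand: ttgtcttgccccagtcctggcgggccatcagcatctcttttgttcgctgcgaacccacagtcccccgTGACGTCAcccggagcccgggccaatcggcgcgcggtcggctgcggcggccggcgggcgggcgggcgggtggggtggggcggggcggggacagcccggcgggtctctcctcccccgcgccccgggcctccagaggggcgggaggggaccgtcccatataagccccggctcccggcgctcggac
AXL, chr19:41218973-41219222, plus strand: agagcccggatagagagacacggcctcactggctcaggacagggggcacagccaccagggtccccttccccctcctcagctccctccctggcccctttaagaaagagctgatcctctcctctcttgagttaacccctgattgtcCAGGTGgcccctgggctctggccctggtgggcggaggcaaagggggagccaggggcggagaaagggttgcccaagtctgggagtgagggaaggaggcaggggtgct
The CD44 window held neither motif. The FN1 window held the cAMP response element, starting 183 bases before the transcript start, and the AXL window held CAGGTG 106 bases before it. There were 7 such windows for 6 members (CD44, VIM, FN1, ZEB2, TGFBI and 2 starts of AXL). Of these, 1 held CACCTG or CAGGTG and 1 the cAMP response element, against 17.5% and 1.65% of 35116 windows of all genes. These are matches of letters only.

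Mimic and negative control RNA were given at the same dose, so this comparison asks what differs with the sequence of the transfected RNA. CD44 was lower in the mimic arrays and was the only member to pass the test. Its log2 intensity was 5.30, 5.23 and 5.32 in the mimic arrays, 5.79, 5.69 and 5.59 in the negative control arrays and 5.59, 5.64 and 5.62 in the mock arrays. The 3 mimic arrays lay below all 6 control arrays, with a gap of 5.32 to 5.59 between the highest mimic and the lowest control array. CD44 averaged 5.28 ± 0.05 in mimic and 5.69 ± 0.10 in negative control arrays (SD, n = 3 each). The log2 change was -0.41 ± 0.07 (SE, 95% interval -0.56 to -0.25), which is 1.33-fold lower, with a limma adjusted p = 0.0446. It ranked 75 by p among 14884 genes, of which 82 (0.551%) passed, 52 of them (0.349%) lower. Of these 52 falls 49 were larger than that of CD44, whose spread within groups was small (residual SD 0.06, percentile 10.8 of all genes).

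The call was lost without any 1 array. Leaving out any 1 of the 9 kept the log2 change between -0.46 and -0.36 but moved the adjusted p to between 0.05001 and 0.148, so CD44 passed in 0 of 9 such fits. The lowest of these came without mock replicate 3. With the replicate number as a block the adjusted p was 0.0879. It was 0.108 when mock was left out of the fit. Over all 20 alternatives CD44 passed in 8 and was lower in the mimic in 20. The 8 include the fit on genes above the median alone (limma adjusted p = 0.0132). CD44 is in that set through its control arrays, as its mimic arrays lie below the median.

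**Figure D2:**
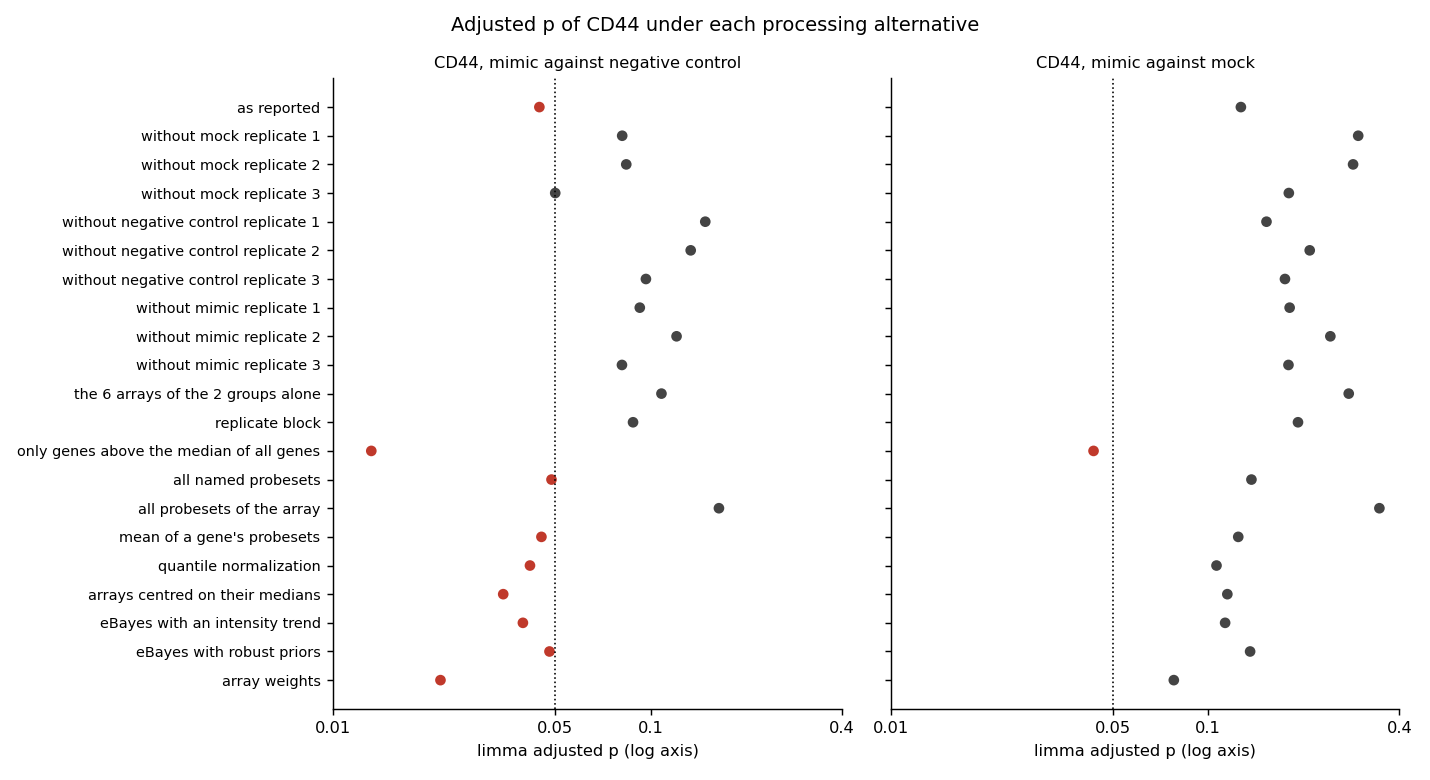
Adjusted p of CD44 (x axis, log scale; red where below the dotted threshold of 0.05) for mimic against negative control (left) and mimic against mock (right), as reported and under each of 20 alternatives (rows). Against the negative control 8 alternatives pass. The 9 fits with an array left out do not, with adjusted p from 0.05001 to 0.148. Against mock 1 passes, the fit on genes above the median alone, which CD44 enters through its control arrays.

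Against mock, the lipid without RNA, CD44 differed in the same direction without passing. The mock arrays averaged 5.62 ± 0.02 (SD, n = 3), and the log2 change of the mimic was -0.33 ± 0.07 (SE, 95% interval -0.49 to -0.18), with a limma adjusted p = 0.127, where 45 of 14884 genes (0.302%) passed. At the standard error of CD44 a change of 0.43 would have been needed there. Among genes above the median alone the limma adjusted p was 0.0435. CD44 is in that set through its control arrays, since its mimic mean of 5.28 lies below the median of 5.44. That fit is therefore no separate support for the fall. Both comparisons use the same 3 mimic arrays. Negative control and mock arrays overlapped, with a log2 difference of 0.07 ± 0.07 (SE) and an adjusted p = 0.976. In a contrast added after the data were seen, the mimic arrays against the mean of both controls, the log2 change of CD44 was -0.37 ± 0.06 (SE) with a limma adjusted p = 0.0275, where 163 genes (1.10%) passed, and leaving out an array moved the adjusted p to between 0.0478 and 0.0999. It stayed below the threshold in 1 of 9 such fits, that without negative control replicate 3.

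**Figure D3:**
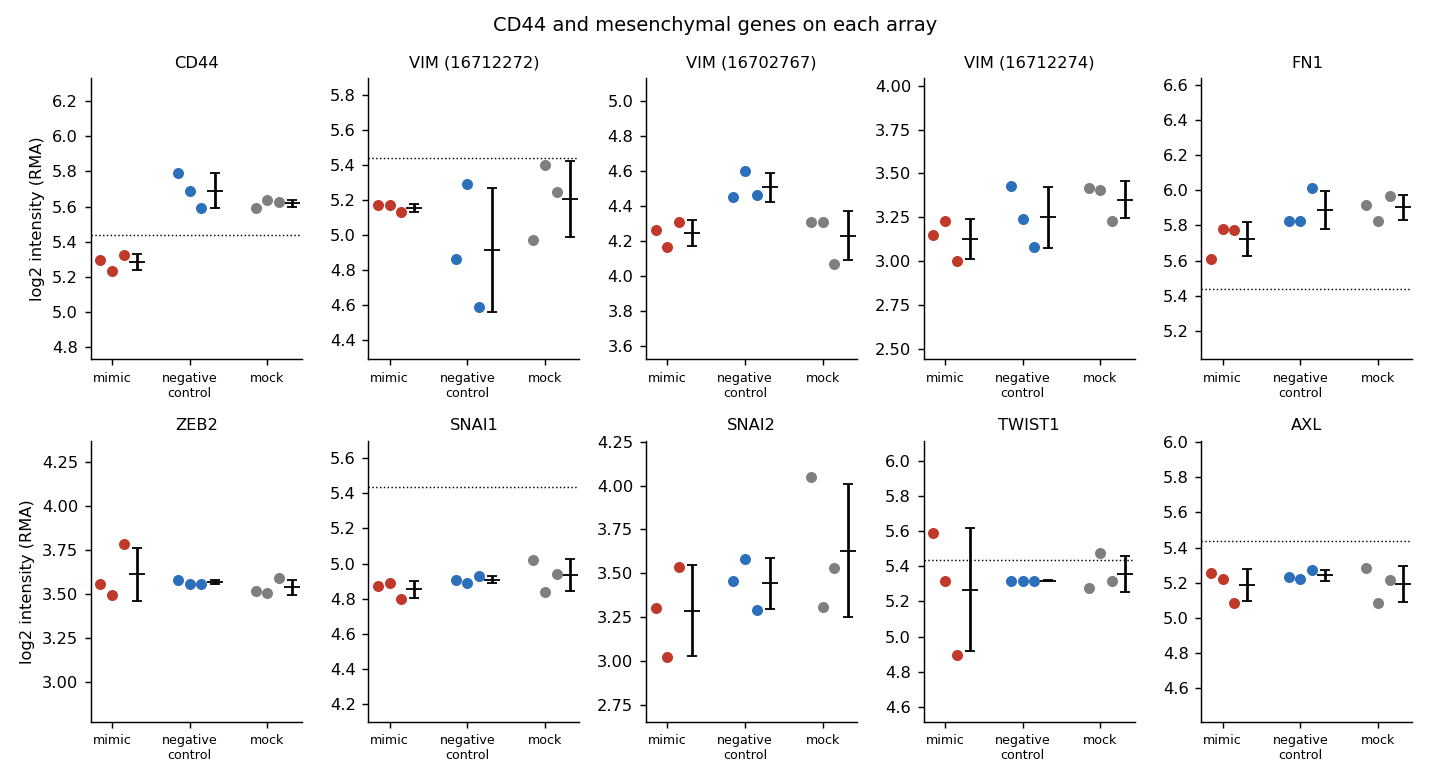
Log2 intensity (RMA, y axis, 1.6 units in every panel) of each probeset of the 8 measured genes on the 9 arrays, 1 point per array, with mimic in red, negative control in blue and mock in grey. Black bars are the mean ± SD of each group (n = 3) and the dotted line, where in range, is the median of all genes (5.44); the CD44 mimic points (5.23 to 5.32) lie below all control points (5.59 to 5.79).

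FN1 encodes fibronectin, the matrix glycoprotein that integrins bind. Its log2 intensity was 5.61, 5.78 and 5.77 in the mimic arrays, 5.83, 5.83 and 6.01 in the negative control arrays and 5.92, 5.83 and 5.97 in the mock arrays. The mimic arrays lay below all 6 control arrays, by a narrow margin of 5.78 to 5.83. The log2 change was -0.17 ± 0.08 (SE, 95% interval -0.36 to 0.02) against the negative control and -0.18 ± 0.08 (SE, 95% interval -0.37 to 0.004) against mock, with limma adjusted p = 0.442 and 0.478. FN1 did not pass in any comparison, and a change of 0.47 would have been needed against the negative control. Taking the brightest probeset of each gene, CD44 and FN1 were the 2 of 8 members whose mimic arrays all lay lower than the negative control arrays, which held for 8.01% of all genes. The same 2 lay lower than the mock arrays (5.44% of all genes) and lower than all 6 controls (3.46%).

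VIM encodes vimentin, the intermediate filament protein of mesenchymal cells, and its 3 probesets disagreed. On the brightest, 16712272, the log2 intensity was 5.17, 5.17 and 5.13 in the mimic arrays, 4.86, 5.29 and 4.59 in the negative control arrays and 4.97, 5.40 and 5.24 in the mock arrays. The mimic arrays fell inside the range of the controls, which spread over 0.81. The log2 change against the negative control was 0.24 ± 0.16 (SE, adjusted p = 0.589). Probeset 16702767 gave 4.26, 4.17 and 4.31 in the mimic arrays, 4.45, 4.601 and 4.46 in the negative control arrays and 4.31, 4.31 and 4.07 in the mock arrays. Here the negative control arrays lay above those of both other groups: the log2 change of the mimic was -0.26 ± 0.09 (SE, adjusted p = 0.277 over the 16098 named probesets) against the negative control and 0.02 ± 0.09 against mock. The negative control differed from mock by 0.27 ± 0.09 (SE, unadjusted p = 0.0112, limma adjusted p = 0.979), without overlap of the arrays. Of all genes, each at its brightest probeset, 4.77% had negative control arrays wholly above mock and 8.01% wholly above mimic. Probeset 16712274, the dimmest, ran from 3.00 to 3.23 in mimic, 3.08 to 3.43 in negative control and 3.23 to 3.42 in mock arrays. Its change relative to the negative control was -0.12 ± 0.11 (SE, log2). Over the 9 arrays the Pearson correlations between the 3 probesets were -0.33, 0.16 and 0.06, a description of values that share arrays. The sign of a VIM change thus depended on the probeset, and averaging the 3 gave -0.05. No source used here gives the strand or the stretch of transcript that each probeset covers.

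Among the transcription factors no member passed in either comparison. SNAI1, which encodes Snail, was 4.87, 4.89 and 4.80 in the mimic arrays, 4.90, 4.89 and 4.93 in the negative control arrays and 5.02, 4.84 and 4.94 in the mock arrays. These values overlapped within a range of 0.22, and the log2 change against the negative control was -0.06 ± 0.07 (SE, 95% interval -0.21 to 0.10). SNAI2, which encodes Slug, was 3.30, 3.02 and 3.54 in the mimic arrays, 3.46, 3.58 and 3.29 in the negative control arrays and 4.05, 3.31 and 3.53 in the mock arrays. It was among the noisiest of all genes (residual SD 0.28, percentile 95.2). Its log2 change was -0.16 ± 0.19 (SE, 95% interval -0.58 to 0.27) against the negative control and -0.34 ± 0.19 against mock, and at this spread a change of 1.06 would have been needed to pass against the negative control.

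TWIST1, a basic helix-loop-helix factor, was 5.59, 5.32 and 4.89 in the mimic arrays, 5.32, 5.32 and 5.31 in the negative control arrays and 5.28, 5.48 and 5.32 in the mock arrays. The mimic arrays thus held both its highest and its lowest value, and the log2 change against the negative control was -0.05 ± 0.15 (SE, 95% interval -0.38 to 0.28). Without mimic replicate 3 it was 0.14. ZEB2, a zinc finger repressor of E-cadherin, was 3.56, 3.49 and 3.78 in the mimic arrays, 3.58, 3.56 and 3.56 in the negative control arrays and 3.52, 3.50 and 3.59 in the mock arrays. Its log2 change was 0.05 ± 0.08 (SE, 95% interval -0.14 to 0.23), and -0.04 without mimic replicate 3. That array was the highest of 9 for ZEB2 and the lowest of 9 for TWIST1, SNAI1 and AXL, and its mean correlation with the other mimic arrays over all probesets (0.985) was the lowest within any group. The near-equal negative control values of TWIST1 and ZEB2 rest in part on repeated values. TWIST1 has 1 identical value on 4 of the 9 arrays and ZEB2 on 3, and 57.1% of all genes have some value that recurs exactly. The negative control values of TWIST1 behind its SD of 0.003 were 5.3196, 5.3196 and 5.3142, a repeated value and another close to it.

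AXL, a receptor tyrosine kinase, was 5.25, 5.22 and 5.08 in the mimic arrays, 5.23, 5.22 and 5.27 in the negative control arrays and 5.28, 5.08 and 5.21 in the mock arrays. All groups overlapped, and the log2 change was -0.06 ± 0.08 (SE, 95% interval -0.23 to 0.12) against the negative control and -0.01 ± 0.08 (SE) against mock. In all, 1 of 8 members was lower, 0 were higher and 7 did not pass against the negative control, and 0 of 8 passed against mock. The median log2 change over the 8 was -0.06 against the negative control and -0.09 against mock, beside 0.01 over all genes in each comparison. For negative control against mock 0 of 8 members passed, as did 0% of 14884 genes in limma's test; on the brightest probesets 0 members and 622 genes had an unadjusted p under 0.05.

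**Figure D4:**
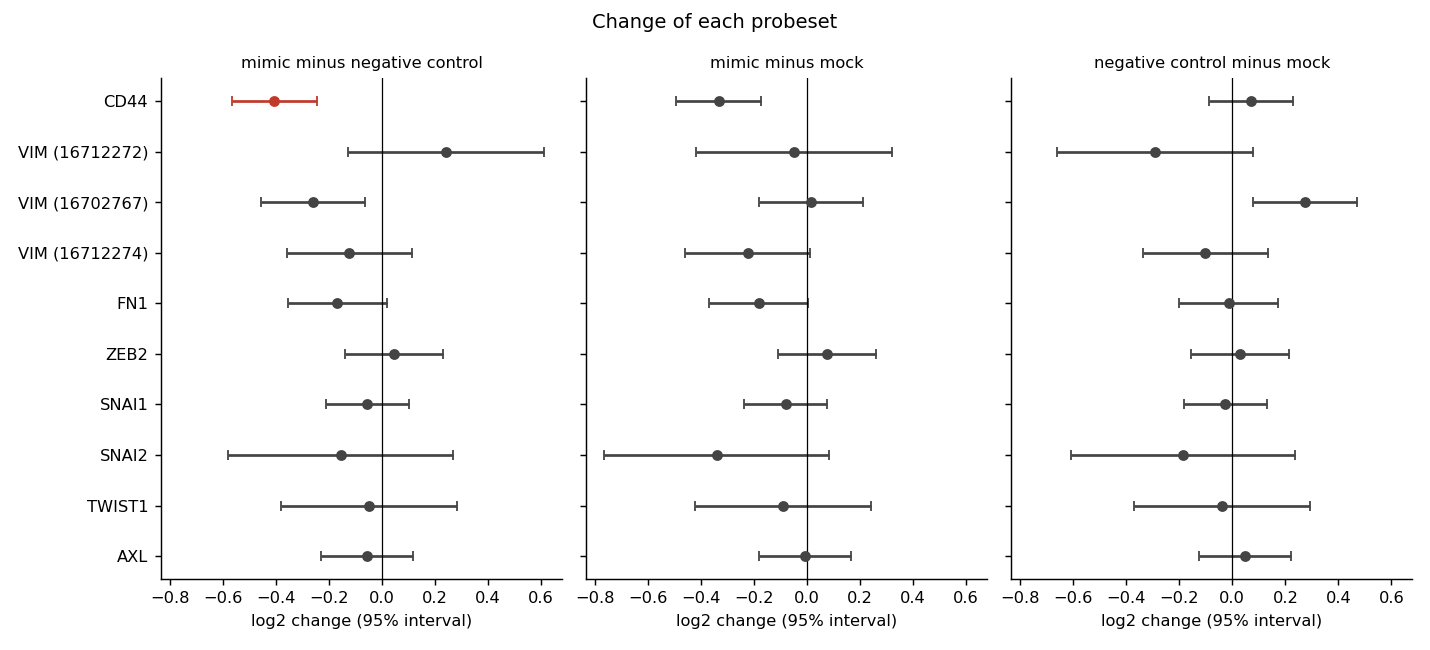
Log2 change (x axis) of each of the 10 probesets with its 95% interval from limma, for mimic minus negative control, mimic minus mock and negative control minus mock; red marks an adjusted p under 0.05. CD44 against the negative control (-0.41) is the only red point, and the 3 VIM probesets lie on both sides of 0 in the left panel.

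Genes that work with the members were set beside them. Around CD44, 15 of 21 listed partners, proteases that cut surface proteins, and splicing factors were measured: 0 rose, 1 fell and 14 did not pass, in each comparison of the mimic. Of all genes 0.349% were called lower against the negative control and 0.134% against mock. The gene that fell was ADAM19, a membrane metalloprotease (-1.54 ± 0.10 SE, limma adjusted p = 0.000869 against the negative control). Its fall was known from earlier results of these data when the list was made, so this count is no result about the list. MSN, which encodes moesin and links the CD44 tail to actin, averaged 5.22 in mimic, 5.54 in negative control and 5.604 in mock arrays. Its log2 intensity differed by -0.33 ± 0.10 (SE, adjusted p = 0.235) against the negative control and -0.39 ± 0.10 (SE, adjusted p = 0.201) against mock. Its relatives EZR (ezrin, 0.003 ± 0.06) and RDX (radixin, -0.10 ± 0.15) did not pass either. ESRP1 and ESRP2, the epithelial splicing regulators that favour variant exons of CD44, stood at percentiles 98.6 and 98.9 of all genes and changed by -0.01 ± 0.10 and 0.11 ± 0.07 (SE). A gene-level probeset cannot separate CD44 splice forms. Of 10 measured genes of hyaluronan synthesis, breakdown and binding 0 passed. A negative log2 change was seen in 8 against the negative control (46.5% of all genes) and in 7 against mock (46.2%). Of the 10, 9 were higher and 1 lower in negative control than in mock arrays, where 47.2% of all genes were lower. Against the negative control, signs were as uneven in other lists below: 9 of 11 intermediate filament genes and partners were negative and 9 of 12 TGF-beta genes positive. The lowest p of the hyaluronan genes was that of HMMR, a hyaluronan receptor that also acts at the mitotic spindle (-0.37 ± 0.11, adjusted p = 0.219), and the synthase HAS3 changed by -0.06 ± 0.07.

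Upstream of several members, 12 of 18 genes of TGF-beta signalling were measured and 0 passed. LTBP1, which holds latent TGF-beta in the matrix, came closest (0.48 ± 0.09 SE, limma adjusted p = 0.0509 against the negative control). SMAD7, an inhibitor of the pathway that it also responds to, changed by 0.37 ± 0.09, adjusted p = 0.103, and SMAD6, an inhibitor of BMP signalling, by -0.60 ± 0.18, adjusted p = 0.216. The median of the 12 was 0.10. Of 14 other transition-related transcription factors 0 passed, and 4 lay above the median of all genes (SOX4, TCF3, SOX9 and SNAI3, at percentiles 93.7, 86.4, 83.9 and 56.1). ZEB1, a reported target of miR-150-5p at percentile 8.90, changed by -0.16 ± 0.10, and SOX4, which had the lowest p of the list, by 0.40 ± 0.12 (SE, adjusted p = 0.197). The AXL ligand GAS6 (0.10 ± 0.13) did not pass, nor did the other 3 measured genes of ligands and relatives, of which the receptor TYRO3 had the lowest p (0.11 ± 0.10). Of 11 intermediate filament genes and cytoskeletal partners 0 passed, with NES, the filament protein nestin, at the lowest p (0.22 ± 0.12). Of 7 other mesenchymal markers 0 passed, with FBN1, the fibrillin-1 gene, at the lowest p (0.13 ± 0.07). The integrins that bind fibronectin were not analysed here.

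On the epithelial side, 0 of 15 adhesion genes and repressors of the transition passed in either comparison; GRHL1, an epithelial transcription factor, had the lowest p (-0.48 ± 0.12, adjusted p = 0.145). Of 11 luminal markers 2 rose, PGR (0.58 ± 0.08, limma adjusted p = 0.01998) and ESR1 (0.46 ± 0.07, adjusted p = 0.0295), 0 fell and 9 did not pass, where 30 of all genes (0.202%) were called higher. PGR passed in 12 of 20 alternatives and ESR1 in 9, and with 1 array left out in 4 and 1 of 9 fits; neither passed with mock left out of the fit, with the replicate block or over all probesets of the array. The mean of the 11 ran from 10.13 to 10.24 in mimic, 9.94 to 10.01 in negative control and 9.98 to 10.08 in mock arrays. Markers of other cell types, which could carry CD44 or VIM, had no called member: 0 of 5 basal, 0 of 5 fibroblast, 0 of 5 leukocyte and 0 of 7 endothelial genes. The mean of the fibroblast markers ran from 3.73 to 3.74 in mimic, 3.60 to 3.79 in negative control and 3.77 to 3.88 in mock arrays, and that of the leukocyte markers from 4.27 to 4.35 in mimic, 4.24 to 4.32 in negative control and 4.22 to 4.30 in mock arrays. The mean of the 7 endothelial markers, all below the median of all genes, ran from 3.86 to 3.97 in mimic, above 3.68 to 3.76 in negative control and 3.67 to 3.77 in mock arrays. The mean of the basal markers ran from 4.73 to 4.79 in mimic, 4.66 to 4.79 in negative control and 4.74 to 4.93 in mock arrays. The lowest p in these lists belonged to OXTR among basal (0.37), FBN1 among fibroblast (0.13), CSF1R among leukocyte (0.21) and PECAM1 among endothelial markers (0.47), as log2 changes against the negative control. Against mock these genes changed by -0.05 (OXTR), 0.13 (FBN1), 0.04 (CSF1R) and 0.59 (PECAM1). Their part in the CD44 result was not tested.

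Across the 9 arrays the genes most like CD44, among 7441 above the median of all genes, were PMVK (phosphomevalonate kinase, Pearson r = 0.967), GALNT6 (a mucin-type O-glycosylation enzyme, 0.962), PHGDH (the first enzyme of serine synthesis, 0.961), FLYWCH2 (0.956) and KCTD20 (0.955). All 5 were also lower in the mimic against the negative control, with log2 changes from -0.74 for KCTD20 to -0.33 for GALNT6, and PMVK, PHGDH, FLYWCH2 and KCTD20 passed. The difference between groups itself contributes to these correlations, so the falls and calls of these 5 genes follow in part from how they were chosen. The genes next to CD44 in the order of p were CABCOCO1, CA12 and WT1 before it and SBNO1, EN2 and ZFP90 after it, with adjusted p from 0.0417 to 0.0475.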

How the data were processed

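Total RNA of ZR-75-1 cells was hybridised to 9 one-colour arrays. The deposited table holds log2 intensities of each probeset on each array in 53617 rows, made by the authors with RMA (background correction, normalization between arrays, summary of probes), per the submitters' processing notes; no source used here gives its version, the probe annotation or the build. Names came from the platform annotation for 16098 probesets, with 0 symbols changed by RefSeq; 37519 are unnamed here. Each gene took its brightest probeset (14884 genes). R 4.3.3 and limma 3.58.1 (lmFit, eBayes) fitted 1 mean per group over all 9 arrays, with 6 residual degrees of freedom, two-sided p-values and Benjamini-Hochberg adjustment over all genes at 0.05. The other VIM probesets were fitted among all named probesets. With 3 arrays in each group the smallest exact permutation p is 0.1, so none was run. The fit was tested on simulated data. The number of arrays limits the precision. Promoter sequences are from RefSeq.

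The members, the lists and the alternatives were chosen with earlier results of these data known. Named genes are the members, up to 3 passing members of each list or else the one with the lowest p, direct partners of members, the 5 genes most correlated with CD44 and the 3 on either side of it by p. Nothing says that the replicate numbers pair the samples, so they were not taken as pairs, and the block is given as an alternative. Correlations of deviations from the group means ran from -0.06 to 0.13 over 9 same-numbered pairs of arrays. They ran from -0.18 to 0.16 over 18 other pairs, and such overlapping ranges cannot decide whether the numbers are pairs.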

Additional observations from a re-analysis of the deposited data

How the results depend on the processing

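The direction of the CD44 change held in all 20 alternatives of each mimic comparison, its call did not. Against the negative control (-0.41 as reported), leaving out 1 array gave -0.46 to -0.36, and the call was also lost at -0.41 with the 2 groups alone (adjusted p = 0.108), with the replicate block (0.0879) and over all probesets of the array (0.164). Members called then numbered 0 in place of 1, also without any 1 array (0 to 0). Against mock CD44 passed (-0.33) among genes above the median alone, so 1 member was called in place of 0. CD44 is in that set through its control arrays, as its mimic arrays lie below the median. Against both controls leaving out 1 array gave -0.39 to -0.35. Genes called against the negative control, 82 as reported, numbered 7 to 121 with 1 array left out, 8 with the 2 groups alone, 16 with the replicate block, 263 among genes above the median, 6 over all probesets, 181 with an intensity trend and 268 with array weights. Against mock, 45 as reported, they numbered 1 to 10, and 1, 3, 102, 3 and 78 under the first 5 of these settings. Against both controls they numbered 31 to 102 in place of 163. The cause of these shifts was not tested. Some of these settings hold fewer samples or another number of genes. The replicate block, the intensity trend and the array weights hold the same arrays and genes.

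Of 402 values of the 7 other members 383 kept their direction and side of the threshold and 19 changed sign, none of them called. With 1 array left out the ranges that crossed 0 were, against the negative control, -0.211 to 0.136 for TWIST1 and -0.0403 to 0.106 for ZEB2; against mock, -0.168 to 0.046 for VIM, -0.0114 to 0.135 for ZEB2, -0.251 to 0.0964 for TWIST1 and -0.0638 to 0.0429 for AXL. For negative control against mock they were -0.0759 to 0.0185 for FN1, -0.0728 to 0.0168 for SNAI1, -0.346 to 0.0243 for SNAI2, -0.0796 to 0.0188 for TWIST1 and -0.0082 to 0.0923 for AXL. Sign also changed for VIM against the negative control with the mean of its probesets (-0.0475), for ZEB2 with array weights (-0.00615) and for FN1, negative control against mock, with centred arrays (0.00641) and array weights (0.00424). Against the median of all probesets (4.23) the levels were CD44 1.30, VIM 0.86, FN1 1.61, ZEB2 -0.66, SNAI1 0.67, SNAI2 -0.78, TWIST1 1.08 and AXL 0.97, and the dimmest VIM probeset lay at -2.20 against the median of all genes. No other background correction could be tried on these values.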
